A study of Mus musculus with 28 samples.

Results

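The libraries described here came from day 5 embryoid bodies (EBs) of the mouse embryonic stem cell line CCE, and they were chosen by the names of their data columns. The columns EB-EloAhet-1 and EB-EloAhet-2, here pair A, were set against the columns EB-EloAWT-1 and EB-EloAWT-2, here wild type, so that 4 of the 28 libraries of the series were used, across all genes. The labels of pair A contradict each other: the column names say heterozygous for EloA, the gene of Elongin A, while the sample titles and the genotype field say EloA null. No genotype was assigned, and the name pair A stands for these 2 libraries throughout. A second pair, here pair B, carries the mirrored contradiction (columns EloAnull, titles EloA+/-, genotype field EloA het) and was compared only where it shows how pair A differs. Wild type EBs were given as EloA+/+. All 6 EB libraries were made from CCE cells (CCE28 in the labels) 5 days after withdrawal of the cytokine LIF. The stem cells had before been grown on mouse embryonic fibroblast feeders with LIF and the inhibitors PD0325901 and CHIR99021, and feeders were depleted by plating. CCE stem cells themselves were given as 3 libraries labelled EloA null and 3 labelled EloA wild type. The labels do not say how the alleles were made, or whether the 2 libraries of a group are separate cultures or clones, so p-values measure the spread between these libraries, which may be technical.

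Elongin A, listed in the files as Tceb3, is the large subunit of Elongin, a complex with the smaller subunits Elongin B and Elongin C. Elongin raises the rate at which RNA polymerase II moves along a gene by suppressing its pausing. Polycomb repressive complex 2 (PRC2), which the title of the series joins to Elongin A, methylates histone H3 and keeps many developmental genes silent in stem cells. EBs are aggregates of stem cells that differentiate once LIF is gone, and at this stage they hold cells that resemble the epiblast, the primitive streak, early mesoderm and endoderm. The question behind the comparison was which genes depend on Elongin A in differentiating cells, and which dose of the gene it tests cannot be told from the contradictory labels.

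Values are RPKM, a read count scaled by exon length and by library size. The depth, estimated from the size of a single read's step, was 29.2 to 29.5 M reads (megareads) in pair A, 24.7 to 25.4 M reads in pair B and 23.6 to 30.8 M reads in wild type. Across the genes tested, log2 values correlated at 0.981 between the 2 pair A libraries and at 0.979 between the 2 wild type libraries. Between pair A and wild type, libraries of the same number correlated at 0.985 for both numbers. Those of different numbers correlated at 0.976 and 0.977. Libraries of the same number were thus more alike across these groups than the 2 libraries within either group. Defining markers of differentiating cells were present: the primitive streak gene T had 42.6 and 58.3 RPKM in pair A and 37.4 and 58.1 RPKM in wild type, and the mesoderm gene Hand1 33.1 and 33.00 RPKM in pair A and 46.1 and 52.9 RPKM in wild type. The neural gene Neurog2 was listed at 0 in both pair A libraries and at 0.0145 and 0 RPKM in wild type. The trophoblast marker Tpbpa was listed at 0 in all 4 of these libraries and Elf5 stayed at 0.0132 and 0.0266 RPKM in pair A and 0.0126 and 0.0247 RPKM in wild type. Cdx2, also set as a trophoblast marker, was abundant, at 31.9 and 17.7 RPKM in pair A and 54.4 and 33.9 RPKM in wild type. It is described with the Hox genes below.

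No single gene passed the test between pair A and wild type EBs. Leaving out predicted transcripts, the values that stood far apart relative to their spread included those of epithelial cell junction genes, higher in pair A, and of the TGF-beta signal transducer Smad3, the ligand Tgfb2 and the collagen genes Col1a1 and Col5a1, lower in pair A. Groups of visceral endoderm and antigen presentation genes were mostly higher in value in pair A, and more than 1 in 2 of the Hox genes were lower, each group by less than 2-fold at the median. Of the cholesterol synthesis genes 13 were lower and 13 overlapped. The test was limma-trend on log2(RPKM + 0.5) in a fit of the 6 CCE EB libraries, with Benjamini-Hochberg adjustment over all 17735 genes tested. It called 0 genes (0% of those tested) at an adjusted p below 0.05, and the lowest adjusted p was 0.560, that of the predicted transcript row AC132957.1, which was named after its value was seen and is uncertain. At an unadjusted p below 0.05 there were 1166 genes (6.57%), 615 higher and 551 lower in pair A. DESeq2 and edgeR were not run, since RPKM values are no counts.

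The precision of the comparison limits how that 0 can be read. The 95% confidence interval of a log2 difference reached 0.48 to either side at the median gene, which is 1.39-fold, and 0.41 at the median of the 12700 genes with a mean of 1 RPKM or more. These intervals hold for single genes without adjustment and are not the smallest difference the test could call. Larger differences still failed the adjusted test, such as that of Smad3 (-1.05, limma adjusted p = 0.663). The median log2 difference over all genes was 0.00, and 115 genes were at least 2-fold higher and 86 at least 2-fold lower in pair A on the log2(RPKM + 0.5) scale, without passing the test. Both pair A values lay above both wild type values in 3092 genes (17.4%) and below both in 2953 (16.7%), and the counts of separated genes in each list below are to be read against these shares. All lists and members were picked with earlier results of these libraries known, so a list's count and median are a description.

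**Figure D1:**
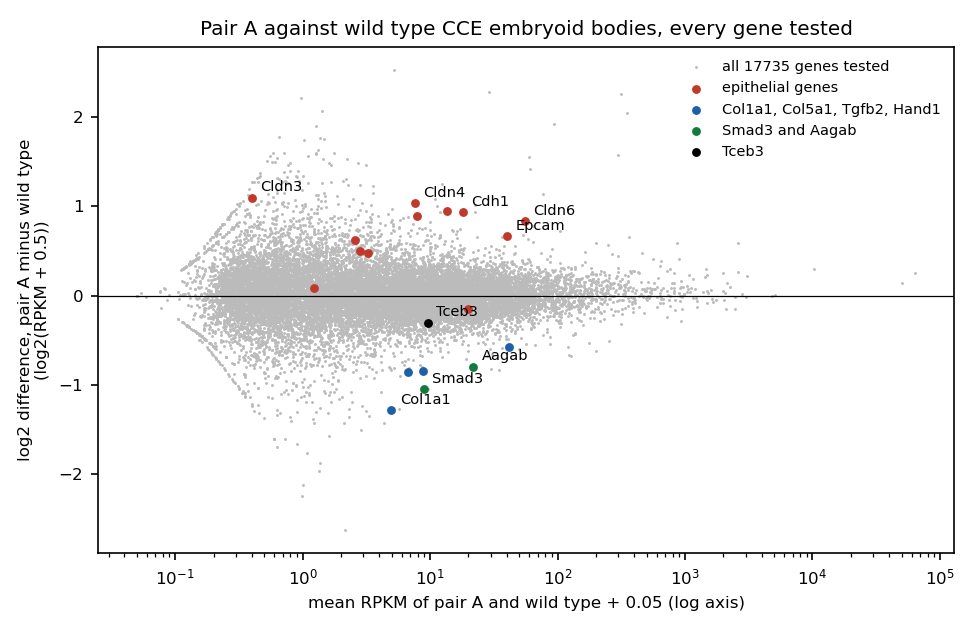
Log2 difference of each gene between pair A and wild type EBs (vertical axis, log2(RPKM + 0.5)) against its mean RPKM (horizontal axis, log scale). Each grey point is 1 of the 17735 genes tested, of which 0 passed the test. Most of the coloured epithelial genes lie above 0, Smad3, Aagab and Col1a1 lie below it, and Tceb3 lies at -0.30.

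Tceb3 itself was lower in value in pair A without passing the test. It had 7.94 and 9.09 RPKM in pair A and 9.89 and 11.4 RPKM in wild type EBs, a log2 difference of -0.30 ± 0.14 (SE, n = 2 per group, limma adjusted p = 0.776). Both pair A values lay below both wild type values. Pair B, at 7.70 and 8.64 RPKM, overlapped pair A (0.06 ± 0.14, adjusted p = 0.869), and no library was near 0, so Tceb3 RNA did not tell the pairs apart and cannot settle the labels. In the stem cells it had 8.02, 6.33 and 6.17 RPKM in the libraries labelled EloA null and 11.7, 11.2 and 10.7 RPKM in wild type (-0.68 ± 0.11, n = 3 per group, adjusted p = 0.0229). Which exons of the gene are missing in any of these cells is not given in the sources used here, so RPKM over the whole gene may not follow the protein.

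The partners of Elongin A showed no separation. Tceb2 (Elongin B) had 188 and 168 RPKM in pair A and 208 and 169 RPKM in wild type. Tceb1 (Elongin C) had 83.6 and 70.4 RPKM in pair A and 68.1 and 79.8 RPKM in wild type. Both genes overlapped between the groups. Of 34 genes of Elongin and RNA polymerase II elongation 0 passed the test, 2 lay higher and 10 lower in both pair A libraries, with a median log2 difference of -0.06. Of 12 genes of PRC2 subunits 0 passed, 0 lay higher and 3 lower, and the median was 0.04. Its catalytic subunit Ezh2 had 17.8 and 19.6 RPKM in pair A and 16.5 and 20.7 RPKM in wild type, and Eed, which the complex needs for its activity, 49.8 and 55.5 RPKM in pair A and 44.7 and 53.2 RPKM in wild type.

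Genes of epithelial junctions were mostly higher in value in pair A. Of 12 epithelial genes taken from the list of the epithelial to mesenchymal transition, 8 were higher in both pair A libraries than in both wild type libraries, 0 were lower and 4 overlapped. Their median log2 difference was 0.75, against 0.00 over all genes, and 0 passed the test. Cdh1, the cadherin that joins epithelial cells, had 23.8 and 23.8 RPKM in pair A and 10.4 and 14.4 RPKM in wild type (0.93 ± 0.21). Epcam, an adhesion molecule of epithelia, had 52.6 and 46.4 RPKM in pair A and 30.9 and 31.1 RPKM in wild type (0.66 ± 0.13). For both genes the wild type libraries were the lowest of the 6.

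The claudins, which seal tight junctions, lay apart in the same way. Cldn7 had 18.4 and 17.5 RPKM in pair A and 8.70 and 9.47 RPKM in wild type (0.95 ± 0.11, limma adjusted p = 0.663), one of the lowest adjusted p-values among all genes. Cldn6 had 79.98 and 63.6 RPKM in pair A and 40.6 and 38.8 RPKM in wild type (0.84 ± 0.17). Cldn4 had 13.1 and 7.86 RPKM in pair A and 4.50 and 4.91 RPKM in wild type (1.03 ± 0.24). Of these claudins Cldn4 differed most between the pair A libraries, and the lower of them was still above both wild type libraries. Cldn3 stood at 0.583 and 0.736 RPKM in pair A and 0.0348 and 0.0455 RPKM in wild type, so the pseudocount sets much of its log2 difference of 1.10 ± 0.20. The polarity gene Crb3 had 10.7 and 9.89 RPKM in pair A and 6.02 and 4.69 RPKM in wild type (0.89 ± 0.17), and the tight junction gene Ocln 3.25 and 3.05 RPKM in pair A and 2.30 and 1.51 RPKM in wild type (0.62 ± 0.22). The desmosome gene Dsp (18.2 and 18.99 RPKM in pair A, 18.04 and 23.7 RPKM in wild type) and the epithelial splicing factor gene Esrp2 (1.38 and 1.06 RPKM in pair A and 1.14 and 1.09 RPKM in wild type) were among the 4 that overlapped.

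Several of these genes were above wild type in value in pair B as well, where Cdh1 had 23.9 and 33.1 RPKM, Cldn4 15.8 and 19.04 RPKM and Crb3 8.61 and 10.9 RPKM. Pair B was compared with the same wild type libraries, so this adds no separate control. In CCE stem cells, which share no library with the EBs, neither Cdh1 (69.4, 76.3 and 75.1 RPKM labelled EloA null, 79.4, 79.8 and 81.2 RPKM wild type, adjusted p = 0.268) nor Cldn4 (adjusted p = 0.863) passed the test. Other claudins ran opposite in value to the EBs there, again without passing. Cldn7 had 1.48, 2.98 and 2.47 RPKM in stem cells labelled EloA null and 2.93, 6.14 and 6.13 RPKM in wild type (-0.96 ± 0.32, adjusted p = 0.186), and Cldn6 1.65, 2.26 and 1.88 RPKM in those labelled EloA null and 2.35, 3.34 and 4.58 RPKM in wild type (-0.66 ± 0.22, adjusted p = 0.188). In bulk libraries more cells of a type and more RNA per cell cannot be told apart, for these genes and for every group below.

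The promoters of these genes are shown because Snai1 and the Zeb factors, regulators of the epithelial to mesenchymal transition, are known to bind a short E-box in the promoters of junction genes. The E-box searched was CACCTG on either strand, which reads CAGGTG on the other. Windows ran from 250 bases before to 50 after the gene's start, 300 bases in all, on the gene's own strand (RefSeq, GRCm38.p6). Capitals mark the E-box. Epcam is at chr17:87635729-87636028, plus strand, Cldn4 at chr5:134946885-134947184, minus strand and Crb3 at chr17:57061951-57062250, plus strand. Tgfb2, the ligand gene described below, is at chr1:186705940-186706239, minus strand and is given for comparison, with no match in its window.
Epcam: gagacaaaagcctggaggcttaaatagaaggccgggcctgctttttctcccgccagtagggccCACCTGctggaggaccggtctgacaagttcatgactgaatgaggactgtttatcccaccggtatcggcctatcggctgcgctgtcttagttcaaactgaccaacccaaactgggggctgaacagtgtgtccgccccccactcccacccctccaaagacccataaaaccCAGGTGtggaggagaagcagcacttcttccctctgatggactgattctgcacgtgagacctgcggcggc
Cldn4: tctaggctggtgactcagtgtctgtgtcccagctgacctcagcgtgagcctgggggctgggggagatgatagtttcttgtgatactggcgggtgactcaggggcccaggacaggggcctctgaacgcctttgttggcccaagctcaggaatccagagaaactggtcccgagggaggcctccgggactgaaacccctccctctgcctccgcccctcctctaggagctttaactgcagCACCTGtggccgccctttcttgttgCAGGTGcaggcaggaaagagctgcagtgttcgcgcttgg
Crb3: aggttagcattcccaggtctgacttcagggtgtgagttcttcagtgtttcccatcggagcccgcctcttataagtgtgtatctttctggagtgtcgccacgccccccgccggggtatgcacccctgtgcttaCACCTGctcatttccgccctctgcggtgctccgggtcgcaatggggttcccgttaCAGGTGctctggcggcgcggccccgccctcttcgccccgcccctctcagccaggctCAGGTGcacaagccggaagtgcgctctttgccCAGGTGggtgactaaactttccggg
Tgfb2: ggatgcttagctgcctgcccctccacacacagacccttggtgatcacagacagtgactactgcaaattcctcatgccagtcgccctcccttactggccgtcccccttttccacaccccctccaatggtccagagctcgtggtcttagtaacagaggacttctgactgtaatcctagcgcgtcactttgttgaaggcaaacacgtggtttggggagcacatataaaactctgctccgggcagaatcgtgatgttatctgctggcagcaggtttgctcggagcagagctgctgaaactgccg
Of the 12 epithelial genes 9 had an entry in the table of promoters, and 9 of these 9 (100%) held the E-box in at least 1 window. Of the 14 mesenchymal genes of the list 7 had an entry and 1 (14.3%) held it. Over all 27025 genes in that table the share was 22.6%, and over its 32851 windows 20.2%. These are letters in a window, not sites shown to be bound. Such E-boxes were already known in promoters of junction genes, so the choice of list partly set the 100%. Dsp, which overlapped between pair A and wild type, held the E-box too, and Cdh1, Esrp1 and Esrp2 had no entry. Whether Snai1 or Zeb2 acted on any of these genes here was not tested. Snai1 RNA itself had 1.86 and 1.84 RPKM in pair A and 2.48 and 3.58 RPKM in wild type (-0.57 ± 0.21), and Zeb2 2.76 and 2.74 RPKM in pair A and 2.82 and 2.94 RPKM in wild type (-0.06 ± 0.14).

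**Figure D2:**
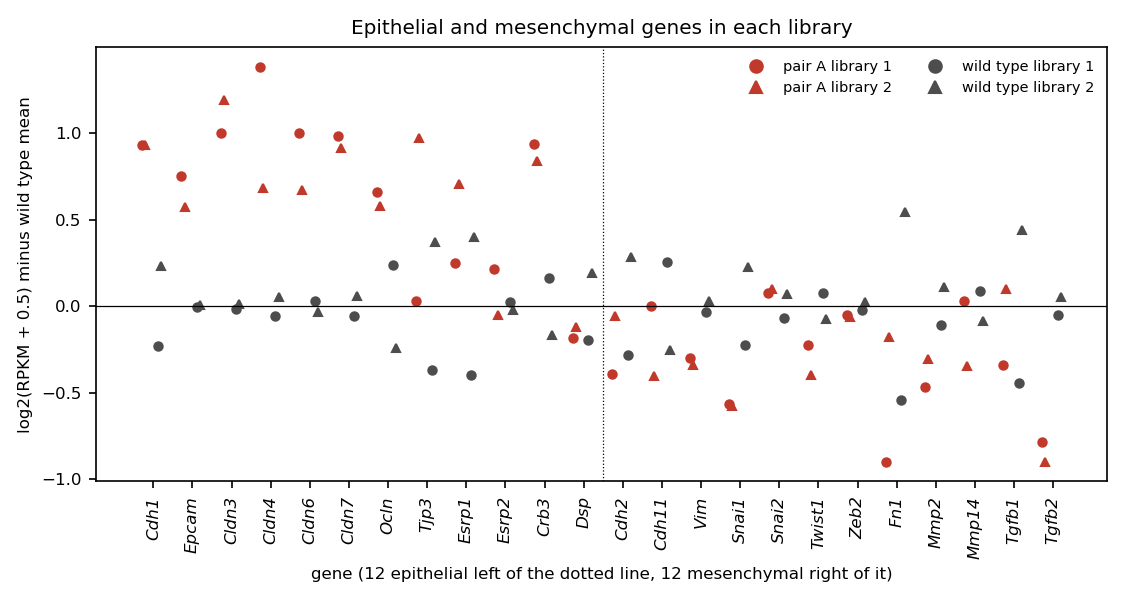
Log2(RPKM + 0.5) of each library minus the wild type mean of the gene (vertical axis), for 12 epithelial genes (left of the dotted line) and 12 mesenchymal genes (right of it). Red symbols are pair A and grey symbols wild type, with circles for library 1 and triangles for library 2. In 8 epithelial genes both red symbols lie above both grey ones, and in 6 mesenchymal genes both lie below.

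Mesenchymal genes of the same list were lower in value or unseparated. Of 12 tested, 6 were lower in both pair A libraries, 1 (Snai2) was higher and 5 overlapped, with a median log2 difference of -0.27. Vim, the intermediate filament of mesenchymal cells, had 281 and 273 RPKM in pair A and 339 and 354 RPKM in wild type (-0.32 ± 0.10). Tgfb2, a TGF-beta ligand, had 6.37 and 5.85 RPKM in pair A and 10.9 and 11.8 RPKM in wild type (-0.84 ± 0.13, confidence interval -1.16 to -0.53). Cdh2, the cadherin of mesenchymal cells, overlapped at 9.16 and 11.7 RPKM in pair A and 9.92 and 14.9 RPKM in wild type, and so did Fn1 (fibronectin) at 52.2 and 86.4 RPKM in pair A and 66.8 and 143 RPKM in wild type. In pair B, Vim was higher than in wild type, at 474 and 482 RPKM.

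Some collagen and matrix genes were lower in value in pair A. Col1a1, which encodes a chain of fibrillar collagen, had 2.57 and 2.71 RPKM in pair A and 6.16 and 8.24 RPKM in wild type (-1.28 ± 0.17, limma adjusted p = 0.677, confidence interval -1.70 to -0.86). Col5a1, another fibrillar collagen chain, had 4.59 and 4.54 RPKM in pair A and 7.87 and 9.48 RPKM in wild type (-0.85 ± 0.13). The matrix protease gene Mmp9 had 1.04 and 1.14 RPKM in pair A and 2.71 and 2.45 RPKM in wild type (-0.95 ± 0.16). All 3 genes had lower values in both pair A libraries. In CCE stem cells the log2 difference of those labelled EloA null from wild type was positive for Col1a1 (0.88 ± 0.28, limma adjusted p = 0.175). It was also positive for Col5a1 (0.69 ± 0.37, adjusted p = 0.392) and Tgfb2 (0.62 ± 0.36, adjusted p = 0.422). These signs were opposite to the EBs, and the groups overlapped for each of the 3. Mean Col1a1 was 47.3 RPKM in stem cells labelled EloA null and 25.9 RPKM in wild type. Mean Col5a1 was 26.3 and 16.8 RPKM there, and mean Tgfb2 1.58 and 0.868 RPKM. Both collagen genes thus stood far higher in the stem cells than in pair A or wild type EBs, which limits the comparison.

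Col1a1 and Col5a1 are also markers of fibroblasts, and fibroblast feeders had been present before differentiation. Of 28 fibroblast and feeder markers tested, 0 were higher and 10 lower in both pair A libraries, with a median log2 difference of -0.14. Over all markers of that list the RPKM summed to 210.0 and 223 in the pair A libraries and to 253 and 319 in wild type. The defining markers Col1a2 (0.438 and 0.381 RPKM in pair A, 0.448 and 0.502 RPKM in wild type), Col3a1 (0.142 and 0.00960 RPKM in pair A and 0.30 and 0.0771 RPKM in wild type) and Postn (0.378 and 0.166 RPKM in pair A and 0.193 and 0.0788 RPKM in wild type) stood at about 0.5 RPKM or less in each of the 4 libraries. Acta2 (smooth muscle actin) had 4.90 and 2.35 RPKM in pair A and 6.09 and 4.15 RPKM in wild type, and overlapped. So did the defining marker Thy1, at 1.31 and 1.03 RPKM in pair A and 1.27 and 1.22 RPKM in wild type. What carried-over feeders contributed to the collagen values of the EBs or of the stem cells was not tested.

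Smad3, which carries the TGF-beta and Nodal signal to the nucleus, shared with Cldn7 the lowest adjusted p among genes that are not predicted transcripts, and did not pass. It had 5.92 and 5.37 RPKM in pair A and 12.02 and 12.4 RPKM in wild type EBs (-1.05 ± 0.12, limma adjusted p = 0.663, confidence interval -1.34 to -0.76). Aagab, its neighbour on chromosome 9 in the RefSeq gene order, which encodes a protein that helps assemble clathrin adaptors, had 15.6 and 15.95 RPKM in pair A and 30.5 and 25.3 RPKM in wild type (-0.80 ± 0.12, adjusted p = 0.677). For both genes the wild type libraries were above the pair A libraries and above pair B, which had 7.25 and 7.87 RPKM of Smad3 and 12.3 and 12.3 RPKM of Aagab.

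In the stem cell libraries Smad3 and Aagab stood in the same order as in the EBs, unlike the collagen genes and Tgfb2. Aagab had 22.4, 23.8 and 24.3 RPKM in the stem cells labelled EloA null and 40.2, 38.3 and 41.3 RPKM in wild type (-0.75 ± 0.05, n = 3 per group, limma adjusted p = 0.00274). Smad3 had 3.94, 3.33 and 3.96 RPKM in stem cells labelled EloA null and 5.39, 6.46 and 6.34 RPKM in wild type (-0.63 ± 0.10, adjusted p = 0.0280). Both genes fell there, among 619 genes called of 18460 (3.35%). Of the 10 expressed genes nearest to the 2 on either side, the log2 difference between pair A and wild type EBs ran from -0.49 to 0.90. The lowest of these was Smad6, an inhibitor of BMP signalling, at 34.3 and 30.98 RPKM in pair A and 49.2 and 43.01 RPKM in wild type. Map2k5 (-0.05 ± 0.13), Zwilch (0.16 ± 0.12) and Rpl4 (0.05 ± 0.16) lay near 0. These neighbours were looked up after the values of Smad3 and Aagab had been seen.

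Other genes far apart were picked by an unadjusted p below 0.01 in place of the adjusted one, with a mean of 1 RPKM or more in the higher group and separated libraries. By that p alone there were 227 of the 17735 genes tested, and among so many tests a large number would arise without any difference. With the other criteria, 53 rows were higher and 63 lower in pair A once predicted transcripts were left out. None of these rows passed the adjusted test, and they are a description. The largest difference above wild type was that of the ribosomal RNA row n-R5-8s1 (4.83 and 13.7 RPKM in pair A, 0.879 and 1.15 RPKM in wild type). Below wild type it was that of the ribosomal RNA row n-R5s161 (0 in pair A, 0.858 and 2.99 RPKM in wild type). What rRNA depletion contributed to these 2 rows was not tested. Among the 15 of largest difference above wild type were the surface proteases Tmprss2 (16.96 and 14.6 RPKM in pair A, 8.06 and 7.86 RPKM in wild type, 0.94 ± 0.15) and St14 (8.55 and 10.4 RPKM in pair A and 4.31 and 6.19 RPKM in wild type, 0.81 ± 0.19), both of epithelia. The carboxypeptidase gene Cpm had 10.6 and 10.8 RPKM in pair A and 5.02 and 6.07 RPKM in wild type (0.90 ± 0.13), and Eras, a Ras-like gene of stem cells, 5.12 and 4.16 RPKM in pair A and 2.71 and 1.81 RPKM in wild type (0.91 ± 0.22). Of that 15, 5 are among the 12 epithelial genes above. The 15 were picked by these values and the 12 with earlier results of these libraries known, so this overlap is no separate support. Below wild type stood Myl9, a regulatory light chain of myosin (7.32 and 5.17 RPKM in pair A, 12.6 and 10.7 RPKM in wild type, -0.86 ± 0.20), Tgfb1i1, a focal adhesion gene (0.933 and 1.09 RPKM in pair A and 2.13 and 2.58 RPKM in wild type, -0.92 ± 0.17), and the lipase gene Lipg (2.24 and 2.45 RPKM in pair A and 4.35 and 4.73 RPKM in wild type, -0.82 ± 0.18). Their differences were all smaller than that of Col1a1.

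**Figure D3:**
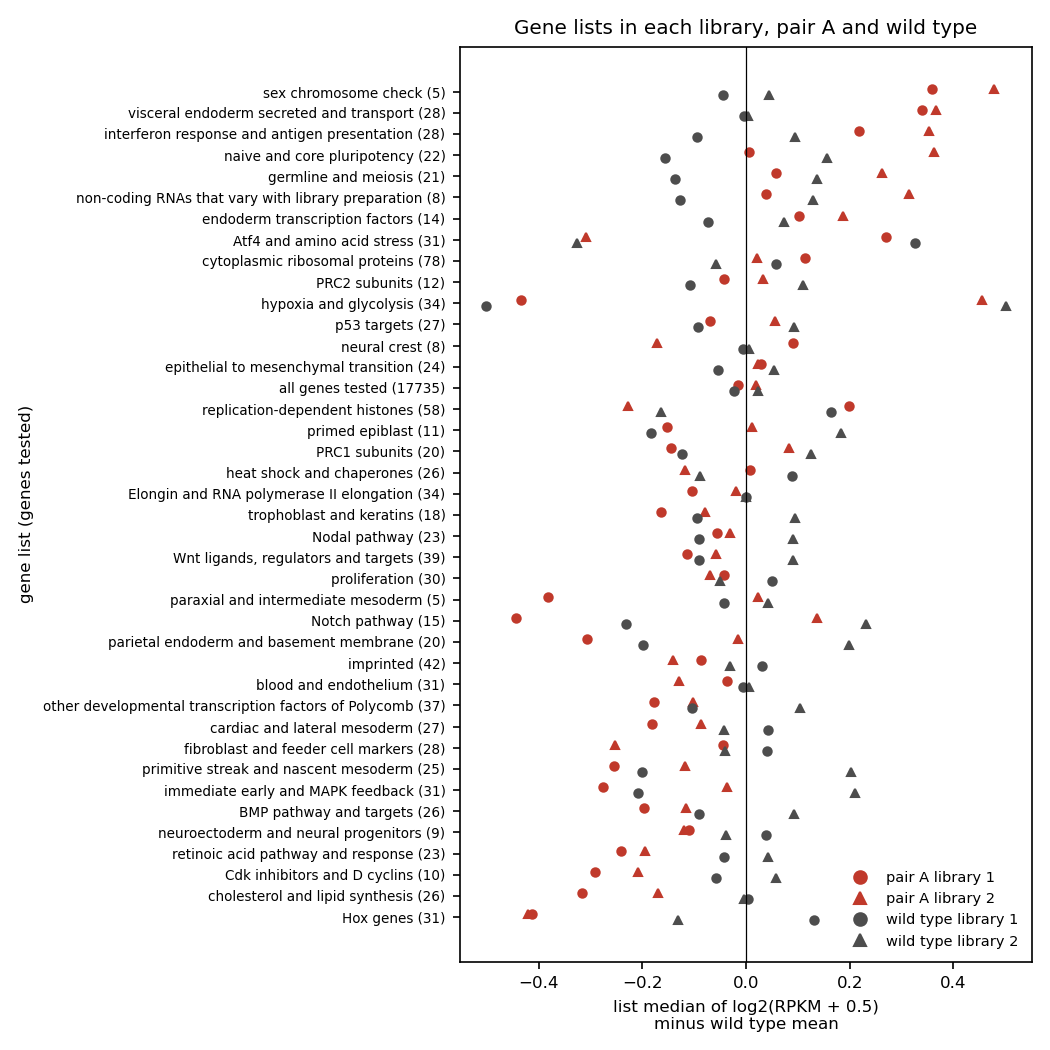
Median of each gene list in each library (horizontal axis, log2(RPKM + 0.5) minus the wild type mean of each gene), with the number of genes tested in brackets on the vertical axis. Red symbols are pair A and grey symbols wild type, with circles for library 1 and triangles for library 2. Hox genes lie at -0.41 and -0.42 in pair A and visceral endoderm genes at 0.34 and 0.37, while in hypoxia and glycolysis genes the libraries of each group lie farther apart than the groups.

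Genes of visceral endoderm, the tissue that wraps the early embryo and absorbs and secretes nutrients, were mostly higher in value in pair A. Of 28 tested 20 were higher in both pair A libraries, 1 was lower and 7 overlapped, and 0 passed the test. Their median was 0.34 and 0.37 in the pair A libraries, 0.69 and 0.85 in pair B and 0.00 and 0.00 in wild type, in log2 units above the wild type mean of each gene. The most abundant members were Spink3, a secreted protease inhibitor, and Apoe, an apolipoprotein. Spink3 had 359 and 234 RPKM in pair A and 233 and 164 RPKM in wild type (0.57 ± 0.25). Apoe had 172 and 201 RPKM in pair A and 136 and 149.9 RPKM in wild type (0.38 ± 0.14). Apob had 2.66 and 3.35 RPKM in pair A and 1.06 and 2.11 RPKM in wild type (0.79 ± 0.30). The defining marker Ttr, which carries thyroid hormone and retinol-binding protein, overlapped between the groups (23.7 and 15.7 RPKM in pair A, 16.1 and 9.11 RPKM in wild type), while Afp was higher in both pair A libraries (1.27 and 1.83 RPKM in pair A and 0.858 and 0.959 RPKM in wild type). Cldn6 and Tmprss2 stand in this list too.

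Endoderm transcription factors were more mixed, with some higher in value in pair A. Foxa2, a forkhead factor of endoderm, had 4.97 and 3.63 RPKM in pair A and 1.94 and 2.45 RPKM in wild type (0.82 ± 0.23). Sox17, a factor of endoderm and endothelium, had 7.46 and 6.98 RPKM in pair A and 4.55 and 4.14 RPKM in wild type (0.67 ± 0.19). Both were higher in both pair A libraries. Gata6, which acts in extraembryonic endoderm and heart, overlapped at 8.50 and 12.04 RPKM in pair A and 9.36 and 11.8 RPKM in wild type. Of 14 endoderm factors 7 were higher and 2 lower in both pair A libraries, with a median of 0.12. Parietal endoderm and basement membrane genes leaned lower in value, with 1 of 20 higher, 7 lower and a median of -0.11.

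Genes of the interferon response and antigen presentation were also mostly higher in value in pair A. Of 28 tested 16 were higher in both pair A libraries, 2 lower and 10 overlapped, and the median log2 difference was 0.30 with 0 passing the test. H2-K1, a class I major histocompatibility chain, had 38.8 and 43.9 RPKM in pair A and 31.1 and 35.4 RPKM in wild type (0.31 ± 0.11). B2m, the light chain it pairs with, had 39.95 and 41.5 RPKM in pair A and 24.8 and 32.7 RPKM in wild type (0.51 ± 0.14). Psmb8, a subunit of the immunoproteasome, had 3.06 and 3.57 RPKM in pair A and 1.88 and 2.41 RPKM in wild type (0.53 ± 0.18). Of the transcription factor genes of the response, Irf1 (12.9 and 14.96 RPKM in pair A and 11.5 and 15.9 RPKM in wild type) overlapped and Stat2 was lower in both pair A libraries (4.01 and 4.36 RPKM in pair A and 4.48 and 6.68 RPKM in wild type), and so was the GTPase gene Irgm1 (6.58 and 4.83 RPKM in pair A and 8.61 and 7.47 RPKM in wild type).

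Hox genes, which pattern the body axis and are classic PRC2 targets, had the lowest median of all lists. Of 31 tested 0 were higher, 17 were lower in both pair A libraries and 14 overlapped, and 0 passed the test. The list medians were -0.41 and -0.42 in the pair A libraries, 0.27 and 0.29 in pair B and 0.13 and -0.13 in wild type, so the 2 wild type libraries themselves differed. Over the family the RPKM summed to 22.6 and 17.6 in the pair A libraries and to 41.8 and 31.5 in wild type. Most Hox genes stood below 1 RPKM, where the pseudocount makes the log2 difference smaller than the ratio of the values.

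Single Hox genes differed in how clear the gap was. Hoxd1 had 3.90 and 4.79 RPKM in pair A and 6.86 and 8.33 RPKM in wild type (-0.74 ± 0.17). Hoxd8 had 3.32 and 2.21 RPKM in pair A and 4.89 and 4.01 RPKM in wild type (-0.61 ± 0.24). Hoxd9 had 2.74 and 1.33 RPKM in pair A and 5.23 and 3.10 RPKM in wild type (-0.90 ± 0.34). Of these 3, Hoxd1 had the largest difference relative to its error, and in Hoxd9 the wild type libraries differed from each other more than the nearer one did from pair A. Hoxa9 had 0.352 and 0.233 RPKM in pair A and 2.11 and 0.712 RPKM in wild type (-1.17 ± 0.37), the largest difference of the family. Hoxb1, a target of retinoic acid in the hindbrain, had 0.896 and 0.502 RPKM in pair A and 1.75 and 1.34 RPKM in wild type (-0.79 ± 0.24). Hoxb4 (1.20 and 0.742 RPKM in pair A, 1.18 and 0.968 RPKM in wild type) and the genes Hoxc10, Hoxc11 and Hoxc13, near 0, overlapped. Cdx2, a caudal factor known to act upstream of posterior Hox genes, had 31.9 and 17.7 RPKM in pair A and 54.4 and 33.9 RPKM in wild type (-0.84 ± 0.33).

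**Figure D4:**
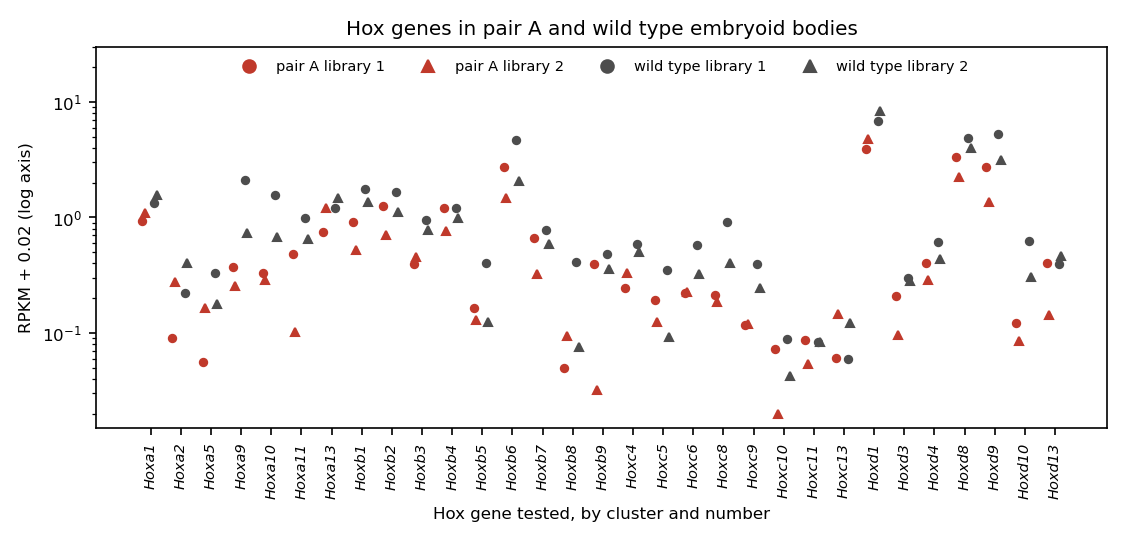
RPKM + 0.02 of the 31 Hox genes tested (vertical axis, log scale) in the 2 pair A libraries (red) and the 2 wild type libraries (grey), ordered by cluster and number on the horizontal axis, with circles for library 1 and triangles for library 2. In 17 genes both pair A values lie below both wild type values. Hoxd1, at 3.90 and 4.79 RPKM in pair A and 6.86 and 8.33 RPKM in wild type, is the most abundant.

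Other developmental transcription factors that Polycomb is known to hold silent in stem cells leaned the same way. Of 37 tested 2 were higher and 15 lower in both pair A libraries, with a median of -0.13 and 0 passing. Hand1, a basic helix-loop-helix factor of lateral mesoderm, had 33.1 and 33.00 RPKM in pair A and 46.1 and 52.9 RPKM in wild type (-0.57 ± 0.10). Msx1, a homeobox target of BMP signals, had 57.2 and 49.6 RPKM in pair A and 91.3 and 67.6 RPKM in wild type (-0.56 ± 0.16). Both had lower values in both pair A libraries.

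Genes of the primitive streak and of early mesoderm leaned lower in value. Of 25 such genes 0 were higher, 9 were lower in both pair A libraries and 16 overlapped, with 0 passing the test and a median of -0.15. Mesp1, which marks cells leaving the streak, had 15.4 and 46.2 RPKM in pair A and 14.6 and 42.2 RPKM in wild type, so that the 2 libraries of each group lay far apart and the groups overlapped. Mixl1 had 4.38 and 3.40 RPKM in pair A and 5.49 and 5.71 RPKM in wild type (-0.48 ± 0.24), and Eomes 7.98 and 7.73 RPKM in pair A and 6.71 and 7.73 RPKM in wild type. The cardiac markers Gata4 (6.29 and 8.45 RPKM in pair A, 7.14 and 8.81 RPKM in wild type) and Nkx2-5 (0.510 and 0.292 RPKM in pair A and 0.276 and 0.582 RPKM in wild type) overlapped. In the blood and endothelial lineage Kdr (19.95 and 27.3 RPKM in pair A and 23.5 and 29.6 RPKM in wild type) and Pecam1 (4.89 and 3.26 RPKM in pair A and 5.48 and 3.56 RPKM in wild type) overlapped, and Tal1 was lower in both pair A libraries (7.06 and 5.80 RPKM in pair A and 8.03 and 8.94 RPKM in wild type, -0.38 ± 0.15).

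Pluripotency genes mostly overlapped between pair A and wild type, and none passed the test. Pou5f1 had 17.5 and 27.3 RPKM in pair A and 15.3 and 21.6 RPKM in wild type, and Nanog 20.6 and 36.1 RPKM in pair A and 17.5 and 25.1 RPKM in wild type, both overlapping. Zfp42 had 5.06 and 3.27 RPKM in pair A and 3.47 and 2.92 RPKM in wild type, and Esrrb stood below 0.2 RPKM in these 4 libraries and was not tested. Of 22 pluripotency genes 5 were higher, 2 were lower in both pair A libraries and 15 overlapped, with a median log2 difference of 0.26. The list medians were 0.01 and 0.36 in the pair A libraries and -0.16 and 0.16 in wild type. Lin28a, an RNA-binding protein that blocks let-7 maturation, was lower in both pair A libraries (96.3 and 95.1 RPKM in pair A and 120.3 and 116.7 RPKM in wild type, -0.31 ± 0.09), and Dppa4 was higher (7.24 and 6.92 RPKM in pair A and 4.71 and 4.46 RPKM in wild type, 0.58 ± 0.13). The epiblast marker Fgf5 had 3.54 and 1.79 RPKM in pair A and 1.72 and 1.17 RPKM in wild type. Markers of neuroectoderm stayed low, with Pax6 below 0.05 RPKM in these 4 libraries.

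Genes of cholesterol and lipid synthesis were lower in value or unseparated in pair A. Of 26 tested 0 were higher, 13 were lower in both pair A libraries and 13 overlapped, with a median log2 difference of -0.23 and 0 passing the test. Fdps, which makes farnesyl pyrophosphate, had 198 and 219 RPKM in pair A and 261 and 241 RPKM in wild type (-0.27 ± 0.12). Scd2, a fatty acid desaturase, had 99.6 and 125 RPKM in pair A and 135 and 169.6 RPKM in wild type (-0.44 ± 0.16). In both genes the pair A libraries were below the wild type libraries. Insig1, which retains the regulator of this pathway in the membrane, overlapped at 63.7 and 71.8 RPKM in pair A and 69.3 and 65.9 RPKM in wild type.

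Signalling genes gave smaller or mixed differences. Of 39 Wnt ligands, regulators and targets 4 were higher and 15 lower in both pair A libraries, with a median of -0.07. Lef1, a nuclear effector of Wnt, had 2.43 and 2.49 RPKM in pair A and 4.24 and 4.15 RPKM in wild type (-0.67 ± 0.14), while Sfrp1, a secreted Wnt inhibitor, had 3.47 and 3.29 RPKM in pair A and 1.83 and 2.47 RPKM in wild type (0.56 ± 0.19). Of 26 BMP pathway genes 4 were higher and 10 lower, and the target Id1 had 87.3 and 84.8 RPKM in pair A and 98.3 and 91.3 RPKM in wild type (-0.14 ± 0.09). Of 10 Cdk inhibitors and D cyclins 0 were higher and 4 lower, and Ccnd2 had 7.56 and 7.36 RPKM in pair A and 10.3 and 12.7 RPKM in wild type (-0.59 ± 0.14). Among 42 imprinted genes 3 were higher and 16 lower. Peg3, expressed from the paternal allele, had 207 and 207 RPKM in pair A and 269 and 322 RPKM in wild type (-0.50 ± 0.13), whereas H19, the most abundant, overlapped at 2619 and 2052 RPKM in pair A and 2997 and 2219 RPKM in wild type.

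In some groups the libraries differed within each group more than the groups did. Of 34 genes of hypoxia and glycolysis 34 overlapped, and the list medians were -0.44 and 0.46 in the pair A libraries and -0.50 and 0.50 in wild type. Ldha, lactate dehydrogenase, had 941 and 1291 RPKM in pair A and 966 and 1189.7 RPKM in wild type. Ddit4, a stress-induced inhibitor of mTORC1, had 54.2 and 183 RPKM in pair A and 50.5 and 168 RPKM in wild type, with 1 low and 1 high library in each group. Genes of the Atf4 amino acid response had the opposite order within groups, with list medians of 0.27 and -0.31 in pair A and 0.33 and -0.33 in wild type. This spread enters the variance against which every gene was tested.

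Pair A was set against pair B to see where it differs from the other pair with contradictory labels. Here 78 genes passed the test (0.440% of 17735), while pair B against wild type gave 24 (0.135%). Of the 78, 17 rose and 61 fell in pair A relative to pair B. Cer1, a secreted antagonist of Nodal, BMP and Wnt signals, rose: it had 8.54 and 6.06 RPKM in pair A and 0.372 and 0.679 RPKM in pair B (2.93 ± 0.24, limma adjusted p = 0.0487). Myl7, an atrial myosin light chain, had 10.8 and 14.4 RPKM in pair A and 1.53 and 1.55 RPKM in pair B (2.67 ± 0.19, adjusted p = 0.0487). Wild type stood between the pairs for both genes, at 3.78 and 4.35 RPKM of Cer1 and 6.49 and 8.19 RPKM of Myl7.

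Among the genes that fell in pair A relative to pair B were Lrp2, Amn, Tgfbi and Lama1, each at a limma adjusted p of 0.0487. Lrp2 (megalin) had 3.38 and 2.91 RPKM in pair A and 12.2 and 17.6 RPKM in pair B (-2.06 ± 0.20). Amn, which anchors the receptor cubilin, had 0.889 and 0.980 RPKM in pair A and 6.43 and 9.54 RPKM in pair B (-2.54 ± 0.22). Tgfbi, a matrix protein induced by TGF-beta, had 2.38 and 1.01 RPKM in pair A and 18.2 and 12.6 RPKM in pair B (-2.91 ± 0.33), and Lama1, a laminin chain of basement membrane, 3.75 and 4.79 RPKM in pair A and 15.6 and 22.3 RPKM in pair B (-2.02 ± 0.21). In these 4 genes the pair A values lay closer to wild type than to pair B, with wild type at 2.43 and 2.38 RPKM of Lrp2, 0.695 and 0.833 RPKM of Amn, 2.68 and 2.70 RPKM of Tgfbi and 4.87 and 5.40 RPKM of Lama1. Fibroblast and feeder markers, taken as a list, were lower in value in pair A than in pair B. Their list medians, relative to the wild type mean of each gene, were -0.05 and -0.25 in the pair A libraries and 0.67 and 0.62 in pair B, and their RPKM summed to 210.0 and 223 in pair A and to 381 and 343 in pair B. Of 28 tested 2 passed, Col5a1 and Fbn1, both lower in pair A. Acta2 had 4.90 and 2.35 RPKM in pair A and 49.97 and 25.99 RPKM in pair B, Col3a1 0.142 and 0.00960 RPKM in pair A and 5.44 and 2.23 RPKM in pair B, and Postn 0.378 and 0.166 RPKM in pair A and 4.40 and 2.01 RPKM in pair B. The defining marker Thy1 ran opposite, at 1.31 and 1.03 RPKM in pair A and 0.280 and 0.795 RPKM in pair B. What feeder markers contribute to the difference between the pairs was not tested. Without any 1 of the 6 libraries 0 or 1 gene was called, and 1 gene was called without chromosome 14.

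Chromosome 14 set pair B apart from pair A. The median log2 level of its genes with a mean of 1 RPKM or more, relative to the wild type mean, was -0.01 and 0.02 in the pair A libraries, against 0.42 and 0.49 in pair B. It was 0.45, 0.42 and 0.44 in the stem cell libraries labelled EloA null, relative to wild type stem cells. On no autosome did a pair A median reach farther from 0 than 0.11, the value of library 2 on chromosome 11. Of the 61 genes that fell in pair A relative to pair B 18 lie on chromosome 14, which holds 3.36% of the tested genes with a known chromosome. What the level of this chromosome contributes to the comparison of the pairs was not tested, beyond the fit without it.

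**Figure D5:**
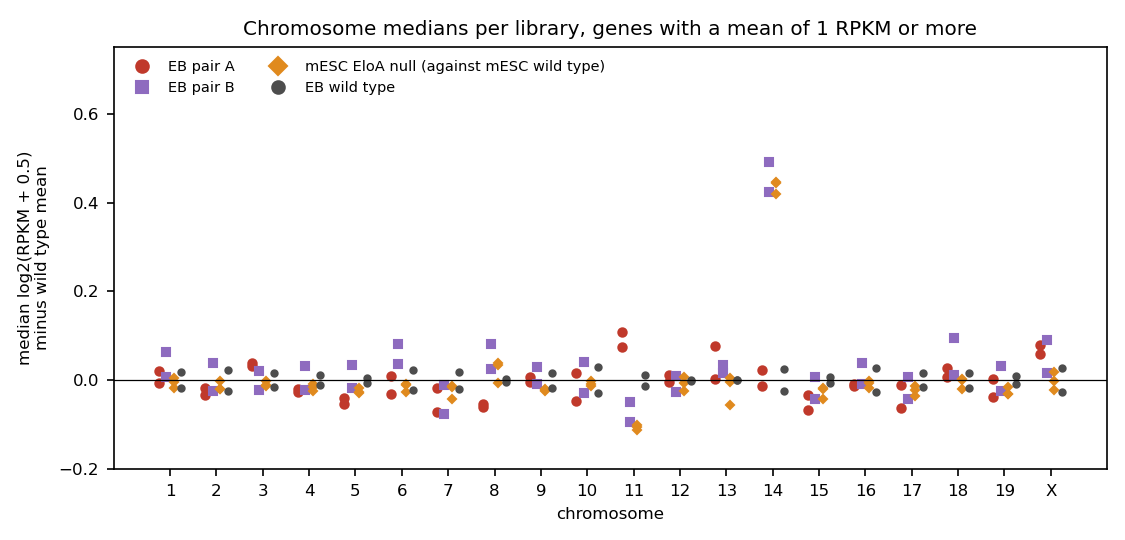
Median over the genes of a chromosome (with a mean of 1 RPKM or more) of log2(RPKM + 0.5) minus the wild type mean (vertical axis), for each library and chromosome (horizontal axis). The autosomes and X are shown, and Y is left out. Red circles are pair A, purple squares pair B, orange diamonds the stem cells labelled EloA null against their own wild type, and grey circles wild type EBs. On chromosome 14 pair B and the stem cells lie between 0.42 and 0.49 and pair A between -0.01 and 0.02.

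A pair of predicted gene rows also stood far apart between pair A and pair B. The predicted gene Gm12735 had 1.30 and 1.05 RPKM in pair A, 7.16 and 8.54 RPKM in pair B and 0.647 and 0.716 RPKM in wild type EBs. In stem cells it had 31.2, 35.8 and 35.5 RPKM in the libraries labelled EloA null and 3.38, 4.82 and 4.19 RPKM in wild type (limma adjusted p = 0.00103). The predicted gene Gm5506 had 31.99 and 45.6 RPKM in pair A, 1.01 and 1.01 RPKM in pair B and 45.9 and 43.6 RPKM in wild type EBs, and 27.9, 25.7 and 31.6 RPKM in the stem cells labelled EloA null against 61.2, 76.03 and 81.96 RPKM in wild type. Its call between the pairs (adjusted p = 0.00383) was the only one below 0.01. Both rows are gene models whose reads may be shared with near-identical copies, so their values are uncertain.

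Y-linked genes also differed between the sets. Over the 3 Y-linked genes with a mean of 1 RPKM or more, the median log2 level relative to wild type EBs was 0.55 and 0.59 in pair A. In pair B that median was -0.21 and -0.16. Ddx3y, an RNA helicase gene, had 20.4 and 20.9 RPKM in pair A, 12.6 and 12.3 RPKM in pair B and 14.7 and 12.9 RPKM in wild type EBs. In the stem cells it had 9.03, 9.99 and 8.55 RPKM in the libraries labelled EloA null and 23.5, 23.2 and 24.5 RPKM in wild type. Pair A thus stood highest among the EBs, and the stem cells labelled EloA null lowest among the stem cells. Across 15832 genes tested at both stages, the log2 differences of pair A from wild type EBs correlated with those of the stem cells labelled EloA null at r = -0.04 (Spearman's rho -0.03), and those of pair B at r = 0.19 (rho 0.21). These correlations are across genes, which are not independent, they rest on 2 libraries a group in the EBs, and no genotype was taken from them.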

How the data were processed

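RNA was measured as rRNA-depleted total RNA, per the labels' protocols (RiboZero Gold depletion, TruSeq total RNA kit). Per the submitters' processing notes, STAR, CASAVA 1.7 and the genome build mm9 were used, in roles those notes do not state. Strand setting, gene annotation and counter: not given in the sources used here. The authors deposited RPKM values, 1 per gene and library. Depth was estimated from the step of 1 read with GENCODE M21 exon lengths, at which 41.5 to 43.2% of values below 0.3 RPKM were whole within 0.02 of a read, so no reads were recovered and no count test was run.

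Genes with 0.25 RPKM or more in at least 2 of the 6 CCE EB libraries were tested with limma-trend (limma 3.58.1, R 4.3.3) on log2(RPKM + 0.5), in 1 fit of 3 groups with 3 residual degrees of freedom, and called at an adjusted p below 0.05. This scale understates the change of low genes. The 6 CCE stem cell libraries were fitted in the same way. Differences are given ± the standard error. The tests were checked on simulated data. Lists were summarised with pandas 2.3.3 in Python 3.11.15, and figures drawn with matplotlib 3.10.9. GENCODE M21 gave chromosomes, joined by identifier.

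The members and the 41 gene lists were chosen with earlier results of these data known. The rule for named genes took Tceb3, the 15 largest called differences in each direction, up to 6 called members of a list in each direction or, where none was called, its 2 most abundant, the 6 largest calls in each direction between the pairs, and the defining cell type markers. Since no gene was called between pair A and wild type, other genes are named there after their values were seen. The defining markers Sox1 and Pou3f1 were not analysed here. Alternatives were other pseudocounts, filters, scalings, thresholds, fits and left-out libraries. The fits without chromosome 14, and those with a replicate block in only the groups compared, were added after seeing the data.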

Additional observations from a re-analysis of the deposited data

How the results depend on the processing

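Pair A against wild type gave 0 calls under each of 20 alternatives, with a lowest adjusted p of 0.0828 (no filter on low values) to 0.932 and 788 to 3186 genes at an unadjusted p below 0.05. The differences named for Cdh1, Epcam, Cldn7, Smad3, Aagab, Col1a1 and Tceb3 kept their direction in all 20. Most alternatives alter only the error or the call and leave the difference itself as it was. In these genes the groups did not overlap, so leaving out 1 library could not reverse the sign. The kept direction is therefore no separate support. With only 2 libraries a group, a difference under 1.33-fold lay within the unadjusted confidence interval of the median gene among those of 1 RPKM or more. Larger differences also failed the adjusted test. Depth was estimated, not given.

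Replicate numbers are shared between groups, but the labels do not say that they mark a batch, so they only name libraries. Deviations of same-numbered libraries correlated at 0.43 between pair A and wild type, 0.18 between the pairs and 0.22 between pair B and wild type, over 2 pairs each. With the replicate number as a block, pair A against wild type gave 0 calls, also with only its 2 groups in the fit, while pair A against pair B gave 1462 (144 with only the 2 groups), pair B against wild type 703 (78) and the stem cells 2288.

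Pair A against pair B gave 78 calls. It gave 794 with all 14 EB libraries in the fit, 152 with a filter of 1 RPKM, 32 with no filter, 5 with median-centred libraries and 1 each with an adjusted p below 0.01, no variance trend, only the 2 groups in the fit, a pseudocount of 0.1 or without chromosome 14. Leaving out 1 library gave 0 to 1. Pair B against wild type gave 24 calls. It gave 591 with all 14 EB libraries, 150 with a filter of 1 RPKM, 101 with quantile normalization, 53 with median-centred libraries, 14 without chromosome 14, 3 with only the 2 groups, 2 with no variance trend and 1 with no filter or an adjusted p below 0.01. Leaving out 1 library gave 0 to 1. The stem cell comparison gave 619 calls, 188 at an adjusted p below 0.01, 118 at 2-fold or more and 158 to 640 with 1 library left out. The cause of these shifts was not tested, except that stricter thresholds call fewer genes by construction. A lone library left in a group is assumed to vary like the other groups.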

Other observations

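Groups not described above showed small differences between pair A and wild type EBs. Of 78 cytoplasmic ribosomal protein genes 23 were higher and 3 lower in both pair A libraries, at a median log2 difference of 0.07, and Rpl32, the most abundant, had 3463 and 3173 RPKM in pair A and 2767 and 2945 RPKM in wild type (0.22 ± 0.19). Of 21 germline and meiosis genes 9 were higher and 0 lower, at a median of 0.18, and the synaptonemal complex gene Syce2 overlapped at 30.4 and 36.2 RPKM in pair A and 28.9 and 39.1 RPKM in wild type. Of 58 replication-dependent histone genes 53 overlapped. Of 18 trophoblast and keratin genes 1 was higher and 6 lower, and the keratin Krt8 overlapped at 747 and 568 RPKM in pair A and 792 and 562 RPKM in wild type. None of these genes passed the test.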
